A study of Mus musculus with 9 samples.

Results

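The mRNAs described here encode the RING finger proteins of the mouse that carry an Rnf number, and they were followed through a CELF2 RNA immunoprecipitation. Members were the protein-coding genes whose symbol is Rnf and a number, with the deposited transcript rows of each gene added up. The table held 83 such genes on 298 transcript rows, among 21900 protein-coding genes. At least 1 count was found for 82 of the 83 and for 18559 of all, and 74 of the 83 passed the filter on low counts. In RIP-seq an antibody captures an RNA-binding protein, and the RNA bound to it is sequenced. The material was the cytoplasmic fraction of cortices from newborn mice (P0), and every library came from heterozygous *Celf2* knockin (KI) animals that carry p.R493H, so no wild-type RIP entered any comparison. The 3 CELF2-KI RIP libraries used a rabbit antibody against CELF2, the 3 IgG RIP libraries used normal rabbit IgG, and the 3 input libraries came from an aliquot of the fraction that met no antibody. Both alleles are present in these animals, so RNA held by the KI and by the normal CELF2 protein cannot be told apart.

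Ubiquitin is passed from an E1 to an E2 enzyme and then to a substrate, and an E3 ligase chooses the substrate. In RING ligases a zinc-binding RING domain holds the E2 next to the substrate, while RING-between-RING (RBR) ligases first take the ubiquitin onto a cysteine of their own. Rnf proteins differ in where they work: some span the membranes of the endoplasmic reticulum, endosome or lysosome, others act on chromatin or free in the cytosol. In neurons ubiquitin ligases take part in axon growth, synapse turnover and protein quality control. CELF2 is an RNA-binding protein that regulates splicing, stability and translation of its target mRNAs.

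The libraries held 15919600 to 20052716 estimated counts for CELF2-KI RIP, 17365561 to 28773130 for IgG RIP and 69125700 to 105116427 for input. Transcript rows without a gene took between 21.06% and 43.46% of the counts in IgG RIP and between 9.24% and 12.63% in the other 6 libraries. Values below are CPM, the counts of a gene over all protein-coding counts of its library, scaled between libraries by the trimmed mean of M values (TMM). The summed level of 7 excitatory neuron markers ran from 1580 to 2190 CPM with the CELF2 antibody, 871 to 1000 CPM with IgG and 932 to 1110 CPM in input. For the erythroid genes, of which 5 of 6 passed the filter, it ran from 92.7 to 95.0 CPM with the CELF2 antibody, 366 to 584 CPM with IgG and 877 to 1130 CPM in input. In that order the sums were 533 to 607, 333 to 380 and 443 to 461 CPM for inhibitory neurons. They were 475 to 916, 545 to 636 and 930 to 1140 CPM for radial glia and astrocytes. Oligodendrocyte precursors had 414 to 478, 322 to 356 and 371 to 431 CPM. Microglia and macrophages (6 of 7 genes) had 92.4 to 126, 55.7 to 75.1 and 127 to 167 CPM. Endothelium had 177 to 257, 162 to 364 and 213 to 336 CPM. Of the 7 excitatory markers 3 were called higher and 1 lower than input. The part of cell origin in the results below was not tested. In these bulk lysates more cells with an mRNA and more of the mRNA per cell cannot be told apart. *Celf2* mRNA itself was higher in CELF2-KI RIP, by 1.46 ± 0.18 (SE) on the log2 scale over IgG RIP and by 1.11 ± 0.18 over input.

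Rnf mRNAs went both ways. With edgeR's quasi-likelihood test, an FDR under 0.01 and at least 2-fold, 11 of 74 Rnf genes (14.9%) were higher in CELF2-KI RIP than in IgG RIP, where 13.4% of all tested genes were. In the same comparison 10 (13.5%) were lower, against 13.6% of all tested genes. Over input 13 (17.6%) were higher and 7 (9.46%) lower, against 14.6% and 15.5% of all genes. Genes higher than both controls, which the study treats as targets, numbered 7 of 74 (9.46%, against 7.58%), and 4 (5.41%, against 9.54%) were lower than both. Both comparisons share the CELF2-KI RIP libraries. These shares lie near those of all genes, except that fewer Rnf genes were lower than input or than both controls. That gap has no test here.

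The balance of higher and lower depended on the scaling. Under total counts the split over IgG RIP was 7 higher and 16 lower, and over input 3 higher and 11 lower. With TMM factors from coding and noncoding genes together it was 10 and 14 over IgG RIP, and 3 and 11 over input. Upper quartile scaling gave 9 and 14 over IgG RIP and 8 and 9 over input, and DESeq2 size factors gave 11 and 10, and 10 and 9. Calls over all 15267 tested genes shifted too. Over IgG RIP 937 were higher and 3421 lower under total counts, and 1349 and 2820 with noncoding genes in the TMM. Upper quartile scaling gave 1212 and 3017, and DESeq2 size factors 1839 and 2280. Over input the splits, in that order, were 531 and 3581, 707 and 3377, 1177 and 2964, and 1566 and 2713. The median log2 change of all genes over IgG RIP moved from -0.06 under TMM to -0.42 under total counts. A scaling shifts all genes alike, and the Rnf median was 0.45 above it under each of the 5. Without the low-count filter, over 82 Rnf genes, that gap was 0.25, and with transcript rows of matching version, over 60, it was 0.34. Over input the Rnf median was 0.06 to 0.07 above that of all genes under the 5 scalings, 0.09 without the filter and 0.12 with matching versions. Under TMM the median over IgG RIP was 0.40 for Rnf genes and 0.38 for RING ligases of other names. It was 0.48 for partners of Rnf ligases, 0.31 for E1 and E2 enzymes and 0.11 for HECT ligases. The median of mean CPM was 35.08 for the tested Rnf genes and 19.18 for all tested genes. Across all tested genes, mean CPM and log2 change over IgG RIP had a Spearman's rho of 0.311. The part of this level in the Rnf medians was not tested.

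Separation of the libraries was also counted. In 29 of 74 Rnf genes (39.2%) each of the 3 CELF2-KI RIP libraries exceeded every one of the 6 controls, which held for 25.2% of all tested genes. In 14 (18.9%) they lay below all 6, against 19.9%. These shares were not adjusted for the level of the genes. In all, 45 of 74 had a positive log2 change over IgG RIP (48.0% of all genes did) and 48 had one over input (56.4%). A further 17 Rnf genes (23.0%) passed the FDR over IgG RIP but rose less than 2-fold. Another 5 (6.76%) passed it with a fall of less than 2-fold. The shares of all tested genes in these groups were not counted, so no lean of the Rnf genes can be read from them.

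**Figure D1:**
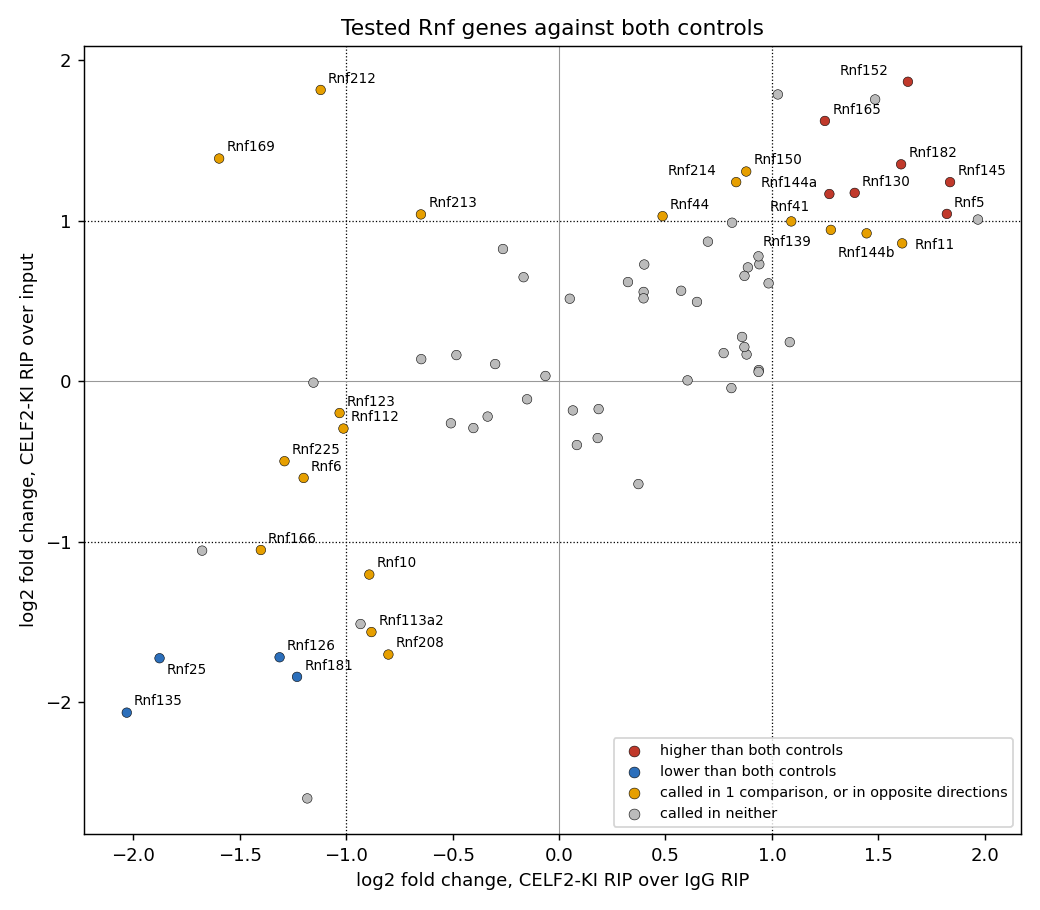
Log2 fold changes against IgG RIP (x axis) and against input (y axis) in CELF2-KI RIP for the 74 tested Rnf genes, 1 point a gene, with dotted lines at 2-fold. The 7 red genes at the upper right passed FDR and 2-fold against both controls, the 4 blue ones at the lower left were lower than both, orange genes were called in 1 comparison only or in opposite directions, and 45 grey genes were called in neither.

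Among the 7 targets the endoplasmic reticulum ligases *Rnf145* and *Rnf5* had the highest log2 changes over IgG RIP. Over input *Rnf152* and *Rnf165* had the highest and *Rnf5* the lowest. RNF145 sits in the endoplasmic reticulum membrane and acts in sterol homeostasis. *Rnf145* (gene ID 74315, chr11:44518793-44565520, GRCm38.p6) stood at 527, 624 and 522 CPM in CELF2-KI RIP, 144, 148 and 177 CPM with IgG and 237, 233 and 239 CPM in input. The 3 groups did not overlap, and input lay between the RIPs. The rise was 1.84 ± 0.12 (SE) on the log2 scale over IgG RIP (FDR 6.22e-06) and 1.24 ± 0.12 over input (FDR 1.6e-05). With only the transcript rows of matching version neither call of *Rnf145* held (1.45 and 0.58, FDR 0.107 and 0.5). That fit left out a row with a mean of 73.1% of its counts in CELF2-KI RIP.

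RNF5, a smaller ligase of the same membrane, takes part in the removal of misfolded proteins. *Rnf5* (gene ID 54197, chr17:34601099-34603561) was at 45.4, 77.3 and 52.1 CPM in CELF2-KI RIP, 16.5, 19.0 and 14.1 CPM with IgG and 27.5, 27.3 and 30.1 CPM in input. The second CELF2-KI RIP library stood well above the other two, and no library of either control reached them. The log2 rise was 1.82 ± 0.21 over IgG RIP (FDR 5.2e-05) and 1.04 ± 0.20 over input (FDR 0.00117). The call over input was lost without that library (0.78) and without the second input library (0.90), and it held under 2 of the 11 other alternatives only.

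RNF152 is a lysosomal ligase that restrains mTORC1. *Rnf152* (gene ID 320311, chr1:105276917-105356991) had 93.7, 179.7 and 126 CPM in CELF2-KI RIP, 41.2, 36.0 and 50.8 CPM with IgG and 35.5, 37.7 and 36.3 CPM in input. The CELF2-KI RIP libraries spread over a wide range, yet the lowest was above every control library. Its log2 change was 1.64 ± 0.22 over IgG RIP (FDR 0.000148) and 1.86 ± 0.22 over input (FDR 5.66e-05), the largest rise over input among the 7.

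RNF182 is a membrane ligase known from brain. *Rnf182* (gene ID 328234, chr13:43615733-43670946) had 66.7, 109.7 and 79.2 CPM in CELF2-KI RIP, against 25.6, 20.8 and 37.3 CPM in IgG RIP and 32.5, 33.0 and 34.8 CPM in input. The controls overlapped each other and lay below all 3 CELF2-KI RIP libraries. The log2 rise was 1.61 ± 0.23 over IgG RIP (FDR 0.000234) and 1.35 ± 0.23 over input (FDR 0.000542).

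The other 3 targets belong to other families. RNF130 (Goliath) is an endosomal ligase with a protease-associated (PA) domain outside the RING. *Rnf130* (gene ID 59044, chr11:50025331-50125719) had 792, 942 and 947 CPM in CELF2-KI RIP, 373, 342 and 309 CPM with IgG and 395, 397 and 397 CPM in input. All 3 CELF2-KI RIP libraries were far above both controls, by 1.39 ± 0.11 over IgG RIP (FDR 1.11e-05) and 1.17 ± 0.11 over input (FDR 1.63e-05) on the log2 scale.

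RNF144A is a membrane-anchored RBR ligase. *Rnf144a* (gene ID 108089, chr12:26306794-26415319) had 115, 138 and 125 CPM in CELF2-KI RIP, 53.1, 55.4 and 48.5 CPM with IgG and 56.6, 55.5 and 56.6 CPM in input. The 2 controls were nearly level with each other. Its log2 change was 1.27 ± 0.11 over IgG RIP (FDR 1.36e-05) and 1.17 ± 0.11 over input (FDR 1.6e-05).

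RNF165, a relative of Arkadia, promotes BMP signalling and motor axon growth. *Rnf165* (gene ID 225743) had 149.5, 326 and 270.1 CPM in CELF2-KI RIP, 112, 91.5 and 109 CPM with IgG and 77.4, 76.3 and 88.6 CPM in input. The first CELF2-KI RIP library was well below the other two, and still above all 6 controls. The log2 rise was 1.25 ± 0.24 over IgG RIP (FDR 0.00129) and 1.62 ± 0.24 over input (FDR 0.000223). With total counts *Rnf152* alone of the 7 was higher than both controls, and with TMM over coding and noncoding genes *Rnf152* and *Rnf165* were. With upper quartile scaling *Rnf145*, *Rnf152* and *Rnf182* were.

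**Figure D2:**
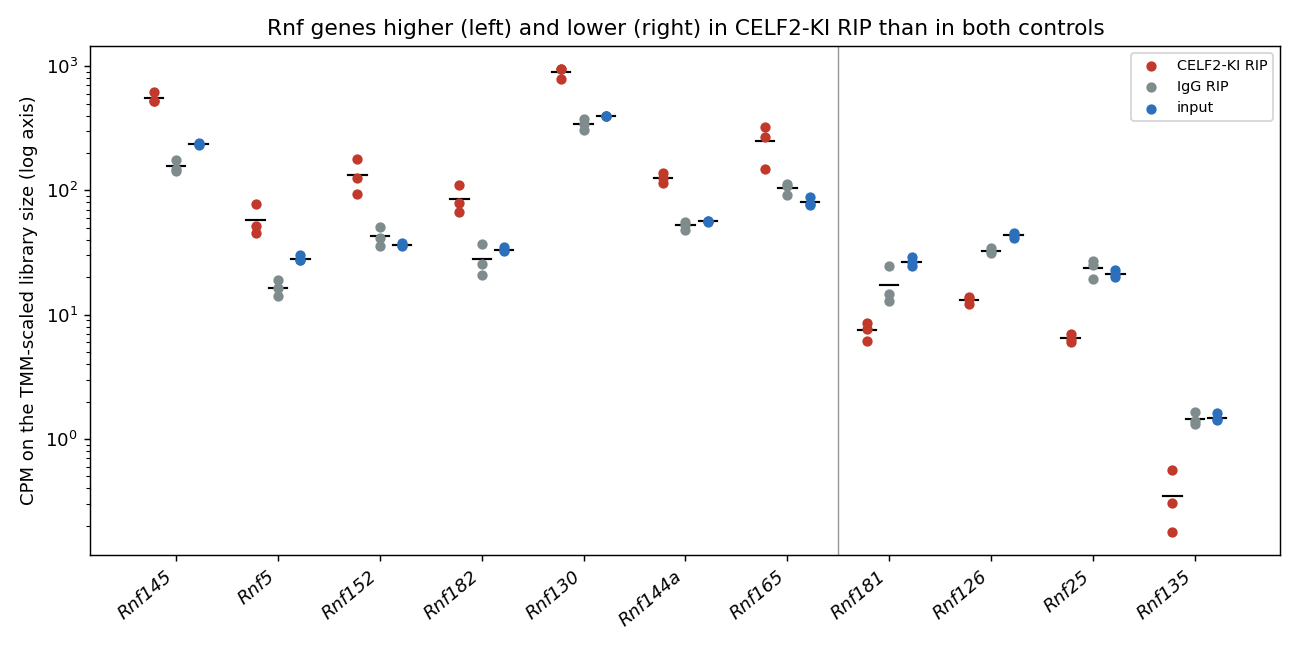
CPM on a log axis in each of the 9 libraries for the 7 Rnf genes higher than both controls (left) and the 4 lower than both (right), with 1 point a library, coloured by group, and a black bar at the mean of each group. CELF2-KI RIP points lie above every control point in the 7 genes on the left, and below every control point in the 4 on the right.

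A further 4 Rnf genes passed over IgG RIP but stayed under 2-fold over input. RNF11 is a small ligase of NF-kB signalling, and *Rnf11* was at 104, 117 and 100.2 CPM in CELF2-KI RIP, 32.7, 33.0 and 39.2 CPM with IgG and 59.1, 59.7 and 58.3 CPM in input. Its log2 rise was 1.61 ± 0.12 over IgG RIP (FDR 8.3e-06) and 0.86 ± 0.11 over input (FDR 0.00012). *Rnf144b*, *Rnf139* (an endoplasmic reticulum ligase also known as TRC8) and *Rnf41* (NRDP1, which degrades ErbB receptors) rose by 1.45, 1.28 and 1.09 over IgG RIP. Over input their log2 changes were 0.92, 0.94 and 0.99, so *Rnf41* lay just under the limit. The call of *Rnf139* over IgG RIP held under 8 of the 11 alternatives that keep all libraries, and its log2 change was 0.25 with rows of matching version. Matching versions left out a row with a mean of 67.5% of the *Rnf139* counts in CELF2-KI RIP. *Rnf41* was at 142, 169 and 151 CPM in CELF2-KI RIP, 74.4, 75.5 and 67.1 CPM with IgG and 75.03, 75.1 and 82.0 CPM in input, and without the second input library it lay just under 2-fold over IgG RIP too (0.99). Its call over IgG RIP held under 6 of the 11 alternatives, with 0.72 under total counts.

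In all, 6 genes were called higher than input but not higher than IgG RIP, of which 3 follow here and *Rnf169*, *Rnf212* and *Rnf213* further below. *Rnf150*, of the same PA domain family as *Rnf130*, had a log2 change of 1.30 ± 0.17 over input (FDR 8.88e-05) and 0.88 ± 0.17 over IgG RIP (FDR 0.00124). *Rnf214* had 1.24 over input and 0.83 over IgG RIP, and *Rnf44* had 1.03 and 0.49. In all 3 the CELF2-KI RIP libraries were above all 6 controls, as with *Rnf44* at 142, 179 and 183 CPM against 139, 121 and 99.2 CPM in IgG RIP and 77.9, 76.0 and 93.2 CPM in input. The call of *Rnf44* over input was lost when any of 4 libraries was left out (0.86 to 0.98), the second and the third CELF2-KI RIP and the first and the second input. It held under 2 of the 11 other alternatives.

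The 4 Rnf genes lower than both controls came from different families, except that *Rnf126* and *Rnf181* are relatives. RNF126 works with BAG6 in the quality control of proteins that miss their membrane. *Rnf126* (chr10:79758515-79771448) was at 14.0, 12.2 and 13.4 CPM in CELF2-KI RIP, 34.5, 32.4 and 31.3 CPM with IgG and 44.0, 41.2 and 45.1 CPM in input. Its replicates were close, and it fell by 1.31 ± 0.12 on the log2 scale against IgG RIP (FDR 1.91e-05) and by 1.72 ± 0.12 against input (FDR 3.62e-06). Its relative *Rnf181* (chr6:72359712-72366994) was at 8.56, 6.16 and 7.67 CPM, against 14.8, 12.8 and 24.9 CPM in IgG RIP and 26.5, 24.9 and 29.0 CPM in input. The third IgG RIP library was the high one. The fall of *Rnf181* was -1.23 ± 0.25 (FDR 0.00189) against IgG RIP and -1.84 ± 0.25 (FDR 0.000125) against input, and -0.89 against IgG RIP without that library, where the call was lost. The call was also lost without the second CELF2-KI RIP library (-1.11).

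RNF25 acts when ribosomes stall on a trapped translation factor. *Rnf25* (chr1:74593748-74601397) was at 7.04, 6.01 and 6.34 CPM in CELF2-KI RIP, 19.3, 24.98 and 27.0 CPM with IgG and 21.1, 20.1 and 23.0 CPM in input. Both controls were at like levels, and the fall was -1.88 ± 0.17 (FDR 1.52e-05) against IgG RIP and -1.73 ± 0.17 (FDR 1.81e-05) against input. With rows of matching version *Rnf25* was -1.14 against IgG RIP (FDR 0.0134), no longer called, and -2.80 against input. RNF135 (Riplet) switches on the viral RNA sensor RIG-I. *Rnf135* (chr11:80183869-80199755) was at 0.560, 0.308 and 0.178 CPM in CELF2-KI RIP, and between 1.31 and 1.65 CPM in the 6 control libraries. These levels rest on 4 counts a library on average in CELF2-KI RIP. The log2 change was -2.03 ± 0.45 (FDR 0.00339) against IgG RIP and -2.06 ± 0.44 (FDR 0.00224) against input. Without the second or the third CELF2-KI RIP library its FDR rose to 0.0142 and 0.0143 against IgG RIP, with log2 changes of -1.94 and -1.74, and to 0.0108 and 0.0107 against input (-1.97 and -1.77), so the calls were lost. That over input was also lost without the first input library (-2.01, FDR 0.0109).

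Other falls met 1 control only. Against IgG RIP *Rnf112* (-1.01), *Rnf123* (-1.03), *Rnf6* (-1.20), *Rnf225* (-1.29) and *Rnf166* (-1.40) were lower, with log2 changes between -0.20 and -1.05 against input that did not pass. RNF112 is a brain GTPase, and *Rnf112* was at 36.7, 22.6 and 38.8 CPM in CELF2-KI RIP, 90.3, 59.3 and 48.2 CPM with IgG and 39.6, 38.8 and 42.0 CPM in input. CELF2-KI RIP thus lay just below input without overlap, as the nearest libraries of both round to 38.8 CPM, and IgG RIP stood above both. None of the 5 calls held in all 9 fits that left out a library. *Rnf225* kept its call in 2 of the 9, and in the other 7 its log2 change was -1.12 to -1.39 with an FDR of 0.0104 to 0.028. *Rnf112* kept it in 3, with -0.72 without the first IgG RIP and -0.81 without the second CELF2-KI RIP library, and in the other 4 losses it was -1.0 to -1.11 with an FDR of 0.0113 to 0.0125. *Rnf6* kept it in 4, with -0.87 without the first IgG RIP library and -1.02 to -1.24 in the other 4 losses (FDR 0.0101 to 0.0201). *Rnf123* was between -0.89 and -0.94 without any of 3 libraries. *Rnf166* was -0.95 without the third IgG RIP library, and without the second or the third CELF2-KI RIP library it was -1.33 and -1.36 with an FDR of 0.014 and 0.013. Against input *Rnf208* (-1.70), *Rnf113a2* (-1.56) and *Rnf10* (-1.21) fell. *Rnf113a2* had 22, 9 and 17 counts in CELF2-KI RIP, and it lost this call in 4 of the 9 fits that left out a library (-1.25 to -1.67, FDR 0.0106 to 0.018). RNF10 marks proteins of the small ribosomal subunit, and *Rnf10* was at 128, 96.2 and 106 CPM in CELF2-KI RIP, 201, 217 and 194 CPM with IgG and 244, 236 and 281 CPM in input, with no overlap.

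IgG RIP itself was higher than input for 3 Rnf genes (4.05% of 74, against 6.79% of all tested genes) and lower for 1 (1.35%, against 5.0%). RNF169 binds ubiquitin marks at DNA breaks. *Rnf169* (gene ID 108937, chr7:99920254-99981330) was at 476, 770.1 and 323 CPM with IgG, 130.1, 218 and 170.1 CPM in CELF2-KI RIP and 62.5, 70.02 and 65.8 CPM in input. The 3 groups did not overlap, and CELF2-KI RIP lay between. The log2 change of CELF2-KI RIP was -1.60 ± 0.29 against IgG RIP (FDR 0.000896) and 1.39 ± 0.28 against input (FDR 0.00185). *Rnf169* was the only Rnf gene lower than IgG RIP and higher than input, which held for 24 genes (0.157%) of all tested. Its call over input was lost without the second input library (1.31). With transcript rows of matching version the log2 change of *Rnf169* over input was 0.15 (FDR 0.68), and that call was lost too.

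*Rnf212*, of meiotic crossover, followed the same order on few counts, with 10.3, 11.2 and 8.74 CPM with IgG, 2.48, 6.78 and 4.64 CPM in CELF2-KI RIP and 1.35, 1.51 and 1.08 CPM in input. Its log2 change was -1.12 against IgG RIP (FDR 0.0154, not called) and 1.81 against input (FDR 0.00102). *Rnf213*, a giant ligase with an ATPase core, was at 144, 139 and 145 CPM with IgG, 79.3, 97.1 and 96.5 CPM in CELF2-KI RIP and 44.9, 40.2 and 47.8 CPM in input. Against input it was 2-fold higher in CELF2-KI RIP (1.04 ± 0.12, FDR 4.35e-05), a call lost without the second (0.99) or the third CELF2-KI RIP library or the second input library (0.86), and held under 2 of the 11 other alternatives. *Rnf13*, of the PA domain family, was the 1 Rnf gene lower in IgG RIP than in input, with a log2 change of -1.01 ± 0.18 (FDR 0.00194), and lost that call without the third IgG RIP (-0.85) or the second input library (-0.97).

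The role lists are small and have no test. Of all tested genes 13.4% were higher and 13.6% lower than IgG RIP, and 14.6% higher and 15.5% lower than input. In edgeR an unadjusted p under 0.05 was met by 4671 higher and 4544 lower genes of all 15267 against IgG RIP. Against input it was met by 5673 and 4170. Of 12 tested ligases of the endoplasmic reticulum and other membranes outside the PA domain family, 5 rose over IgG RIP and 0 fell, by edgeR and by DESeq2. At an unadjusted p under 0.05 edgeR had 7 higher and 0 lower. Over input 4 rose and 0 fell by edgeR (7 and 1 unadjusted), and by DESeq2 3 rose and 1 fell. Their median log2 change over IgG RIP was 0.77, against -0.06 over all genes, and 4 of the 12 were targets, against 7.58% of all genes. The remaining membrane ligases spread from 0.94 for *Rnf103* to -1.15 for *Rnf170*, which degrades activated IP3 receptors. *Rnf170* was at 0 in 1 library each of CELF2-KI RIP and IgG RIP, and its change did not pass (FDR 0.551). In the PA domain family 1 of 7 tested members rose and 0 fell (4 and 0 at an unadjusted p under 0.05), by edgeR and by DESeq2 alike, with all 7 changes above 0 (0.37 to 1.39, median 0.81). Over input 2 of these 7 rose and 0 fell by either tool (4 and 1 unadjusted).

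Among the 8 RBR ligases 2 rose and 0 fell over IgG RIP by either tool (7 and 1 at an unadjusted p under 0.05), and the median was 0.96. Total counts called 1 higher and 1 lower. Over input 1 rose and 0 fell by either tool (5 and 0 unadjusted). *Rnf216* (0.98, FDR 0.00697) and *Rnf14* (0.94, FDR 0.00222) passed the FDR under 2-fold, and *Rnf216* passed 2-fold without the first IgG RIP library (1.22). With rows of matching version *Rnf216* was 3.89 (FDR 0.0139, not called). *Rnf31*, the catalytic part of the linear ubiquitin complex, was the lowest, at -0.65 ± 0.16 (FDR 0.00659) under 2-fold. It had 40.1, 29.5 and 32.4 CPM in CELF2-KI RIP, 58.4, 58.5 and 42.9 CPM with IgG and 30.9, 29.7 and 32.1 CPM in input, so the 2 outer groups overlapped each other and not IgG RIP.

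The 7 chromatin and DNA repair ligases had a median of -0.40, with 0 higher and 1 lower than IgG RIP (*Rnf169*) by either tool, and 2 and 4 at an unadjusted p under 0.05. Over input 1 rose (*Rnf169*) and 0 fell by either tool (2 and 2 unadjusted). Members of this list split. *Rnf2*, the catalytic subunit of Polycomb complex PRC1, and *Rnf4*, which recognises SUMO chains, had log2 changes of 0.77 (FDR 0.000941) and 0.94 (FDR 4.25e-05). With rows of matching version *Rnf2* was 0.0, without a row that held a mean of 85.3% of its counts in CELF2-KI RIP. *Rnf8* and *Rnf168*, which act one after the other at DNA breaks, had -0.30 and -0.40, and neither passed. Of the 9 cytosolic ligases 2 rose (*Rnf11*, *Rnf41*) and 2 fell (*Rnf25*, *Rnf123*) over IgG RIP, with a median of -0.34. DESeq2 gave the same counts, and 4 and 4 passed an unadjusted p under 0.05 in edgeR. Over input 1 rose and 2 fell by edgeR (4 and 2 unadjusted), and 0 rose and 2 fell by DESeq2. *Rnf115*, *Rnf126* and *Rnf181* form 1 family, in which 0 rose and 2 fell by either tool (1 and 2 at an unadjusted p under 0.05) and the median was -1.23. Over input 0 rose and 2 fell by either tool (0 and 2 unadjusted).

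The 5 relatives of Arkadia and RLIM held 1 rise (*Rnf165*) and 1 fall (*Rnf6*), with a median of 0.49, and over input 2 rises by edgeR and 1 by DESeq2, with 0 falls by either (3 and 0 unadjusted). In the RNF125 family 0 of 3 tested members rose and 1 fell (*Rnf166*) by either tool (2 and 1 at an unadjusted p under 0.05), with a median of 0.88, and *Rnf125* had no count in any library. Over input edgeR called 0 of these 3 (0 higher and 1 lower unadjusted), and DESeq2 called 1 lower. Of 3 ligases known from neural tissue, *Rnf157* had 0.87 (FDR 4.78e-05) and *Rnf220* 0.40 (FDR 0.0157), neither at 2-fold, and *Rnf112* fell. With rows of matching version *Rnf220* was -0.27. Over input edgeR and DESeq2 called 0 of the 3 (2 higher and 0 lower unadjusted). *Rnf157* promotes neuronal survival and dendrite growth, and was at 341, 376 and 356 CPM in CELF2-KI RIP, 199, 203 and 185 CPM with IgG and 229.8, 210.3 and 242 CPM in input, with no overlap. The 3 tested germ cell genes had changes from -1.68 to -1.12 over IgG RIP, and edgeR called 0, with 2 lower at an unadjusted p under 0.05 (*Rnf17*, FDR 0.0192, and *Rnf212*, FDR 0.0154) and 1 called lower by DESeq2. Total counts, upper quartile scaling and TMM over coding and noncoding genes each called 2 of them lower. These levels rest on few counts. *Rnf17* had 2, 5 and 4 counts in CELF2-KI RIP and 11, 11 and 16 in IgG RIP. *Rnf138rt1* had 4, 5 and 0 in CELF2-KI RIP and 18, 5 and 0 in IgG RIP. Over input 1 rose (*Rnf212*) and 0 fell by either tool (1 and 1 unadjusted). Of the 14 tested genes in no list, 0 rose and 2 fell by either tool (3 and 4 at an unadjusted p under 0.05), and over input 1 rose and 3 fell (4 and 4). The sign of each list's median over IgG RIP was the same under all 5 scalings.

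**Figure D3:**
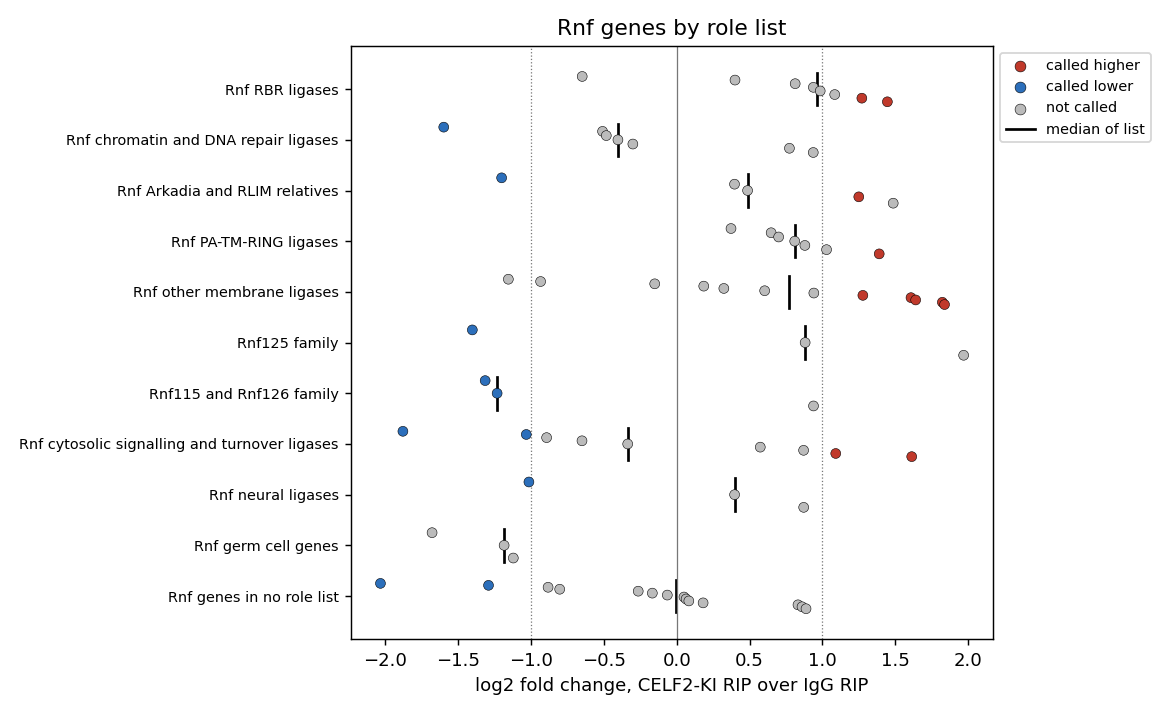
Log2 fold change against IgG RIP in CELF2-KI RIP for each tested Rnf gene by role list, 1 point a gene coloured by its call, with a bar at the median of each list. The membrane, PA domain and RBR lists have medians of 0.77, 0.81 and 0.96, and the lists of chromatin ligases and the *Rnf115* and *Rnf126* family have medians of -0.40 and -1.23.

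Close relatives were set side by side, and the difference within a pair was not tested. *Rnf5* rose by 1.82 over IgG RIP while *Rnf185*, its sister in the endoplasmic reticulum, had 0.19 ± 0.15 (FDR 0.314). *Rnf185* was at 25.2, 19.4 and 23.6 CPM in CELF2-KI RIP, 18.1, 19.6 and 22.2 CPM with IgG and 24.5, 25.1 and 27.4 CPM in input, and its sign turned under 3 other scalings (-0.03 to -0.17). *Rnf165* rose by 1.25 and *Rnf111* (Arkadia, which removes inhibitors of TGF-beta signalling) had 0.40 ± 0.19 (FDR 0.0951). *Rnf126* fell and *Rnf115* had 0.94 ± 0.19 (FDR 0.0018), at 22.1, 26.1 and 21.9 CPM in CELF2-KI RIP, 13.8, 14.1 and 8.81 CPM with IgG and 21.8, 23.9 and 21.1 CPM in input. Without the first or the second IgG RIP library *Rnf115* passed 2-fold (1.03 and 1.06).

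The other pairs follow. *Rnf144a* and *Rnf144b* rose over IgG RIP by 1.27 and 1.45. *Rnf20* and *Rnf40*, which together ubiquitylate histone H2B, had -0.51 (FDR 0.00276, under 2-fold) and -0.48 (FDR 0.0596). *Rnf13* and *Rnf167* had 0.37 and 0.65, and *Rnf19a* and *Rnf19b* had 0.40 and 1.08, without a call.

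Single libraries weighed on some members. *Rnf19b* was at 29.9, 24.8 and 4.87 CPM in the 3 IgG RIP libraries and between 32.01 and 47.9 CPM in the other 6, and its 1.08 over IgG RIP became 0.61 without the third library. *Rnf114* (1.97) and *Rnf43* (1.03, a ligase that removes Wnt receptors) also reached 2-fold over IgG RIP without passing the FDR. Among genes called higher, *Rnf41* (1.09) was nearest to 2-fold, and *Rnf216* (0.98) was nearest below it.

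Of the 83 genes, 9 were not tested. *Rnf125* had 0 counts in all 9 libraries. *Rnf133* had 87 counts in all, with at most 37 in a library, and *Rnf148* had 50. *Rnf151*, *Rnf183*, *Rnf186*, *Rnf212b*, *Rnf222* and *Rnf224* had between 3 and 21 counts over the 9 libraries, too few to compare.

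Transcript rows of a gene did not always move together. These shares are estimates that split reads between overlapping isoforms, and they have no test. *Rnf130*, *Rnf139* and *Rnf169* were singled out after their values were seen. In *Rnf130* the row NM_001290750.1 held 98.2 ± 0.598% (SD, n = 3) of the gene's counts in CELF2-KI RIP, 86.4 ± 2.14% in IgG RIP and 84.6 ± 0.45% in input. The row NM_001290749.1 held between 0.361% and 1.5% in the 3 CELF2-KI RIP libraries, and between 6.16% and 12.7% in the 6 control libraries. In both rows the CELF2-KI RIP libraries did not overlap the controls, which overlapped each other.

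In *Rnf169* the row NM_175388.3 held 35.2%, 11.1% and 25.7% of the counts in CELF2-KI RIP, 0% in all 3 IgG RIP libraries and 50.6%, 45.5% and 52.3% in input. The row XM_006507187.3, a predicted isoform, held 95.7%, 97.2% and 96.5% in IgG RIP. The IgG RIP level of *Rnf169* thus lay almost wholly on 1 predicted row, and on NM_175388.3 IgG RIP was the lowest group. CELF2-KI RIP and input had means of 133 and 32.6 CPM on the predicted row, and of 37.9 and 32.6 CPM on NM_175388.3. The gene overlaps the annotated genes *Gm5115* and *Gm18959*, and reads of these could not be set apart. In *Rnf139* the row NM_175226.4 held 32.5 ± 4.83% in CELF2-KI RIP, 60.0 ± 5.76% in IgG RIP and 36.8 ± 2.21% in input, with IgG RIP alone apart. In *Rnf13* the noncoding row NR_130743.1 held 35.1 ± 7.35%, 53.4 ± 3.02% and 17.6 ± 1.04%.

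**Figure D4:**
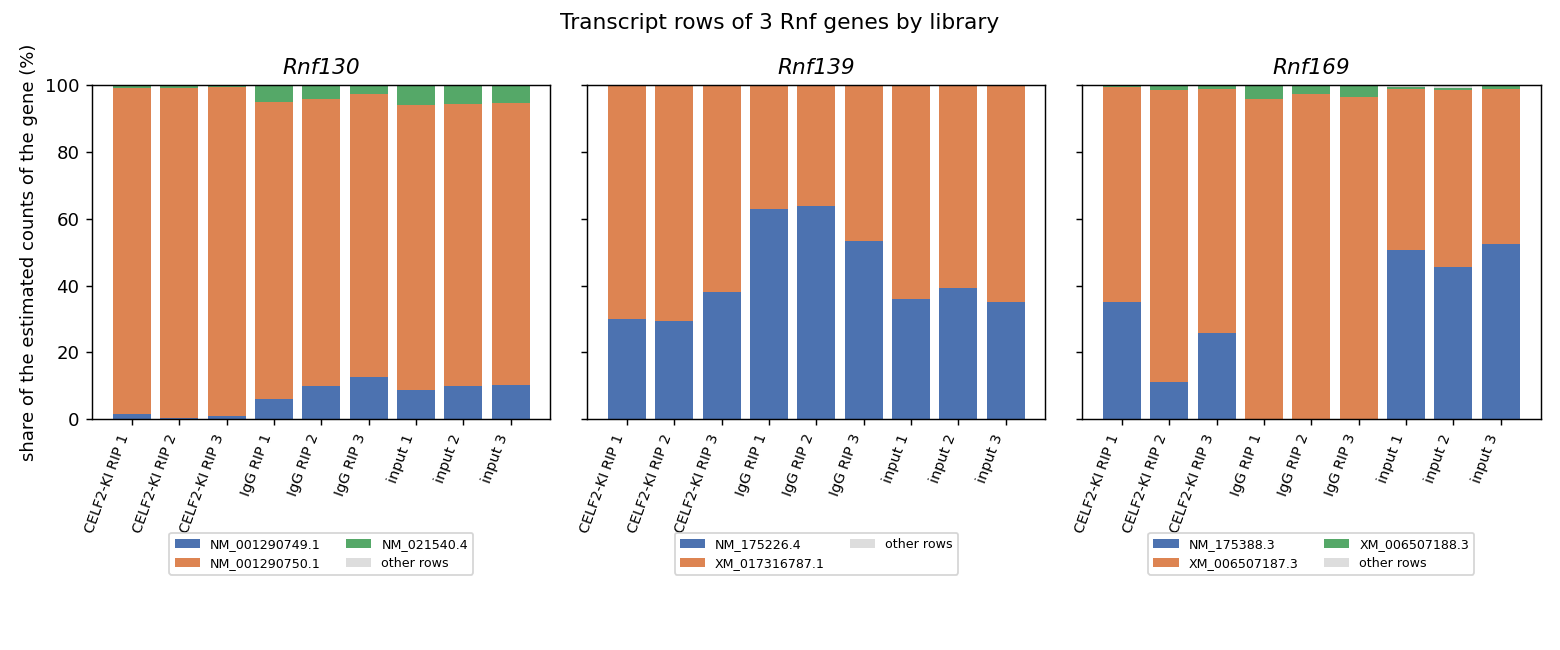
Share of each gene's estimated counts (%) on its transcript rows in each of the 9 libraries for *Rnf130*, *Rnf139* and *Rnf169*, with stacked bars that sum to 100%. In *Rnf169* the blue row is absent from the 3 IgG RIP libraries and holds 45.5% to 52.3% in input.

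Genomic span and depth of counts were compared next. The 7 genes higher than both controls spanned a median of 80.075 kb of genome, from 2.463 kb (*Rnf5*) to 109.027 kb (*Rnf165*). The 4 lower than both spanned 7.283 to 15.887 kb, against a median of 26.6295 kb over the 74. Across the 74 genes span and log2 change had a Spearman's rho of 0.385 for IgG RIP as control and 0.492 for input. Across all 15267 genes it was 0.203 and 0.277. With mean CPM it was 0.394 and 0.434 across Rnf genes, and 0.311 and 0.23 across all. These are correlations across genes of the same 9 libraries, given as descriptions. Of the 37 Rnf genes with the fewer counts (by mean CPM), 2 rose and 7 fell over IgG RIP, and of the upper 37, 9 rose and 3 fell.

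The rest of the ubiquitin pathway gives the setting. Shares of all tested genes to set beside these lists are 13.4% higher and 13.6% lower than IgG RIP, and 14.6% and 15.5% for input. For both controls they are 7.58% and 9.54%. At an unadjusted p under 0.05 in edgeR, 4671 of all 15267 were higher and 4544 lower than IgG RIP. For input these counts were 5673 and 4170. Of 41 tested E1 and E2 enzymes 7 rose and 4 fell over IgG RIP, while 3 rose and 6 fell over input. The ubiquitin E2s *Ube2e3* and *Ube2z* rose by 1.51 and 1.37 on the log2 scale over IgG RIP, and had 0.52 and 0.90 over input, under 2-fold. *Uba7*, the E1 for ISG15, fell by 1.69 ± 0.32 against IgG RIP (FDR 0.00123) and had -0.24 against input, which did not pass. *Ube2m*, the E2 for NEDD8, fell by 1.60 ± 0.16 on the log2 scale against IgG RIP (FDR 2.32e-05) and by 2.13 ± 0.16 against input. Of 26 HECT ligases 1 rose over IgG RIP (*Arel1*, 1.19) and 0 fell in edgeR (8 and 4 at an unadjusted p under 0.05). Over input 6 HECT ligases rose and 0 fell (18 and 0 unadjusted). IgG RIP itself was called higher than input for 5 of the 26 and lower for 0, against 6.79% and 5.0% of all tested genes. RING ligases of other names had 15 rises and 3 falls among 91 over IgG RIP, and 26 and 1 over input. Higher than both controls were 14 of these 91, and 1 was lower. The ligases *Siah1a* and *Znrf3* rose by 1.63 and 1.61 over IgG RIP, while *Ring1*, the alternative of *Rnf2* in PRC1, fell by 2.04 ± 0.21 (FDR 3.25e-05). *Traf7* fell by 1.42 ± 0.17 (FDR 7.87e-05).

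Partners and substrates of Rnf ligases had 14 rises and 4 falls among 52 over IgG RIP, and 10 and 6 over input. Higher than both controls were 8 of these 52, and 3 were lower. *Insig2*, which ties sterol levels to ligases of the endoplasmic reticulum such as RNF145, was at 43.7, 59.9 and 44.2 CPM in CELF2-KI RIP, 12.7, 11.3 and 8.74 CPM with IgG and 16.0, 17.2 and 15.3 CPM in input. Its log2 rise was 2.17 ± 0.19 over IgG RIP (FDR 1.32e-05) and 1.61 ± 0.18 over input. *Sumo3*, whose chains RNF4 recognises, rose by 2.04 and 1.60. The Polycomb subunit *Pcgf1* fell by 2.25 ± 0.28 against IgG RIP (FDR 9.99e-05) and by 1.14 against input. *Rlim*, formerly Rnf12, had 0.59 over IgG RIP (FDR 0.0327) and 1.12 over input (FDR 0.000939).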

How the data were processed

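RIP-seq libraries were compared from the cytoplasmic fraction of P0 cortices of heterozygous *Celf2* KI mice, with 3 libraries for the CELF2 antibody, 3 for IgG and 3 of input. The methods describe rRNA depletion, directional libraries, FastQC 0.11.9, fastp 0.23.4, Ribodetector 0.3.1 and Kallisto 0.51.1, and name edgeR 4.4.0 and DESeq2 1.46.0. The authors deposited estimated counts per transcript, not normalized for depth or length. All 9 columns were used. The methods name Ensembl, the rows carry RefSeq accessions and the labels name mm10. Whether the pseudoalignment used strand is not given in the sources used here, so reads of overlapping genes (21 Rnf genes overlap a coding gene) could not be told apart.

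The accession of each row, without its version, gave its gene in a RefSeq table of GRCm38.p6 (86722 of 107384 rows matched, 153 of the 298 Rnf rows with the same version), and counts were summed and rounded per gene. Coding genes that reached 0.5 CPM in 3 or more libraries (15267) were fitted together with edgeR 4.0.16 in R 4.3.3 (limma 3.58.1, DESeq2 1.42.0, Python 3.11.15, pandas 2.3.3, matplotlib 3.10.9), with TMM scaling, 1 mean per condition and the quasi-likelihood test. A call needed an FDR (Benjamini-Hochberg) under 0.01 and at least 2-fold. SE is the log2 change divided by the root of F. P-values cover the spread between these libraries, and duplicate reads were not told apart by molecular identifiers.

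Members, gene lists and tests were chosen with earlier results of these data known. Named Rnf genes are those called against both controls or between IgG RIP and input, the ends of each role list, paralog pairs, the genes at the 2-fold limit and those with no count. Of the wider pathway lists the 2 highest and 2 lowest called members were named. Any other gene was named after its values were seen. Protein and transcript sequences were not used here, and a few items are not reported here.

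Replicates differed by more than sampling noise (chi-square per gene 11.9 to 44.1). Deviations from the group mean correlated between same-numbered libraries of CELF2-KI RIP and input at 0.185, 0.122 and 0.213 across 11534 genes. Libraries of different number were not compared, so whether the numbers mark pairs cannot be told. For CELF2-KI RIP and IgG RIP the correlations were -0.0702, 0.0382 and -0.0107, and for IgG RIP and input 0.0873, 0.0636 and 0.00793. The replicate number entered as an alternative. The steps were tested on simulated counts of 15083 genes. In these, 45 of 50 genes with a 4-fold rise, 38 of 50 with a 2.8-fold rise and 13 of 50 with a 2-fold rise came out higher than both controls. Lower than both came out 29 of 48 with a fall to 0.357-fold, and 0 of 14885 unchanged genes were higher or lower than both. Calls against a single control were not counted. The simulated spread followed the level of a gene alone, with no difference between IgG RIP and input.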

Additional observations from a re-analysis of the deposited data

How the results depend on the processing

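With 3 libraries a group and no wild-type RIP, changes near 2-fold are hard to call, and the scaling decides how many Rnf genes pass. Counts that moved by more than 1.5 times follow; the cause was not tested. Under total counts 7 Rnf genes were higher and 16 lower than IgG RIP, 3 higher and 11 lower than input, 1 higher and 8 lower than both. With upper quartile scaling 8 were higher than input, 3 higher and 7 lower than both, and 0 lower in IgG RIP than input (17 at an unadjusted p under 0.05, and 1 by DESeq2). With TMM over coding and noncoding genes 3 were higher and 11 lower than input, 4 lower in IgG RIP than input, 2 higher and 8 lower than both. Among all 15267 tested genes 1157 were higher and 1457 lower than both in the main fit, and 237 and 2420 under total counts. Upper quartile scaling gave 519 and 2056 of them, and TMM over coding and noncoding genes 376 and 2079. A test against 2-fold itself (glmTreat) left 4 higher and 1 lower than IgG RIP, 1 higher and 4 lower than input, 0 higher and 1 lower than both, and 0 lower in IgG RIP than input. At an unadjusted p under 0.05 it had 9 higher than IgG RIP, 10 higher than input and 0 lower in IgG RIP than input. With only the libraries compared in the fit 5 were lower than IgG RIP and 4 higher than both. With rows of matching version 6 were lower than IgG RIP, 8 higher than input, 3 lower in IgG RIP than input and 2 lower than both. *Rnf169* was then 13.2 on the log2 scale over IgG RIP, against IgG RIP libraries at 0, which is no bound. *Rnf167* was 0.0 over IgG RIP, as its row of matching version held 0 counts in CELF2-KI RIP and IgG RIP. Over input *Rnf167* was -10.8 (FDR 0.000571) on that same row. This fit keeps 153 of the 298 Rnf rows, and for some genes the row with most counts is dropped. Of 59 Rnf genes in both fits, matching versions moved the log2 change over IgG RIP by more than 1.5-fold in 10 and over input in 6. *Rnf185* turned to -0.17 under total counts, -0.08 under upper quartile scaling and -0.03 under TMM over coding and noncoding genes.

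When each library was left out in turn, 10 to 15 Rnf genes were higher and 5 to 9 lower than IgG RIP, 9 to 15 higher and 5 to 10 lower than input, 6 to 9 higher and 2 to 5 lower than both, and 3 to 4 higher and 0 to 2 lower in IgG RIP than input. The lowest counts of genes lower than IgG RIP (5) and than both (2) came without the second CELF2-KI RIP library, and the 0 came without the second input library (17 at an unadjusted p under 0.05).

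With the replicate number as a block, 11 Rnf genes were higher and 8 lower than IgG RIP, 13 higher and 7 lower than input, 7 higher and 4 lower than both. Among the genes named by rule, the replicate block ended the call of *Rnf6* over IgG RIP (-1.17), and it changed no other call of these over IgG RIP. Over all alternatives and these genes, 704 values kept sign and call, 46 lost a call, 14 gained one and 5 changed sign or became 0.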
